A study of Saccharomyces cerevisiae with 16 samples.

Results

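The carbon source by limitation interaction of a reference strain of Saccharomyces cerevisiae asks whether nitrogen limitation, set against limitation by the carbon source, had the same transcriptional footprint on ethanol as on glucose. It was measured in 8 of the 16 arrays of the series, all of the strain SCE090, which the labels call the reference. The 4 groups of 2 arrays each were chemostat cultures at steady state under glucose limitation, under nitrogen limitation with glucose as carbon source, under ethanol limitation and under nitrogen limitation with ethanol as carbon source, with ammonium sulfate as the nitrogen source throughout. The other 8 arrays came from the mutant strain SCE088 under the same 4 regimes. The labels leave the mutated gene unnamed, and these arrays were used only for the shared estimate of the spread and where the interaction was compared between strains. The labels give no genotype, mating type, dilution rate or residual nutrient concentration for either strain, and the paper describes a time course where the labels give steady states, so the groups follow the labels.

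In yeast, glucose represses the genes for the use of other carbon sources, and when it is scarce the Snf1 kinase relieves that repression through the activators Cat8 and Adr1. Poor nitrogen supply relieves a separate repression, nitrogen catabolite repression, whose GATA factors open the genes for scavenging amino acids, allantoin and other nitrogen sources. Under nitrogen limitation the carbon source is in excess, which on glucose means a culture that is supplied with plentiful glucose and on ethanol a culture without any.

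For each probe set, a set of oligonucleotides that reports 1 transcript, the intensities were taken on a log2 scale, and the interaction is the nitrogen minus ethanol limitation difference on ethanol less the nitrogen minus glucose limitation difference on glucose. A positive interaction, written here as higher, means that nitrogen limitation gave a higher level relative to carbon limitation on ethanol than it did on glucose, and a negative one, written as lower, means the reverse. The same number is the difference between ethanol and glucose under nitrogen limitation less that under carbon limitation. Called means an adjusted p below 0.05 from 1 limma fit over all 16 arrays. The 2 arrays of a reference group correlated at 0.9835 to 0.988 over all probe sets, and array medians lay between 11.91 and 12.01. Whether both arrays of a group stand for different chemostat runs is not stated, and the p-values therefore rest on array-to-array spread that may be technical.

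Of 5716 probe sets, 1398 (24.5%) had a called interaction, 800 (14%) higher and 598 (10.5%) lower. A size of at least 1 on the log2 scale was reached by 115 of the higher and 76 of the lower ones, while the median over all probe sets was 0.02. When the replicate numbers of the sample descriptions, along which the reference arrays deviated together, were kept as a block, 2145 probe sets (37.5%) were called, 1161 higher (20.3%) and 984 lower (17.2%), and all 1398 were among them.

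The differences behind the interaction lay mostly in the glucose cultures. On glucose, nitrogen against glucose limitation called 2494 probe sets (43.6%), 1224 higher (21.4%) and 1270 lower (22.2%). On ethanol, nitrogen against ethanol limitation called 469 (8.21%), 264 higher (4.62%) and 205 lower (3.59%), or 871 with the replicate block. That count of 469 was 240 to 282 when 1 of the 4 ethanol arrays was left out. Read across carbon sources, ethanol against glucose called 1388 probe sets (24.3%) under carbon limitation, or 2194 with the replicate block and 897 without the first ethanol-limited array, and 1921 (33.6%) under nitrogen limitation, 1014 higher (17.7%) and 907 lower (15.9%). Among the 800 probe sets with a higher interaction the median log2 difference was -0.47 on glucose and -0.01 on ethanol, and among the 598 with a lower one it was 0.47 on glucose and 0.05 on ethanol. The glucose difference was the larger in size for 752 of the 800 (94%) and 570 of the 598 (95.3%), and for 4369 of all 5716 (76.4%). Because the interaction is built from these same arrays, such shares describe its make-up and are no separate result. Of the 1398, 1090 (78%) were called on glucose and not on ethanol, 200 (14.3%) were called on both in the same direction, 52 (3.72%) were called on both in opposite directions, 27 (1.93%) were called on ethanol alone and 29 (2.07%) on neither.

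**Figure D1:**
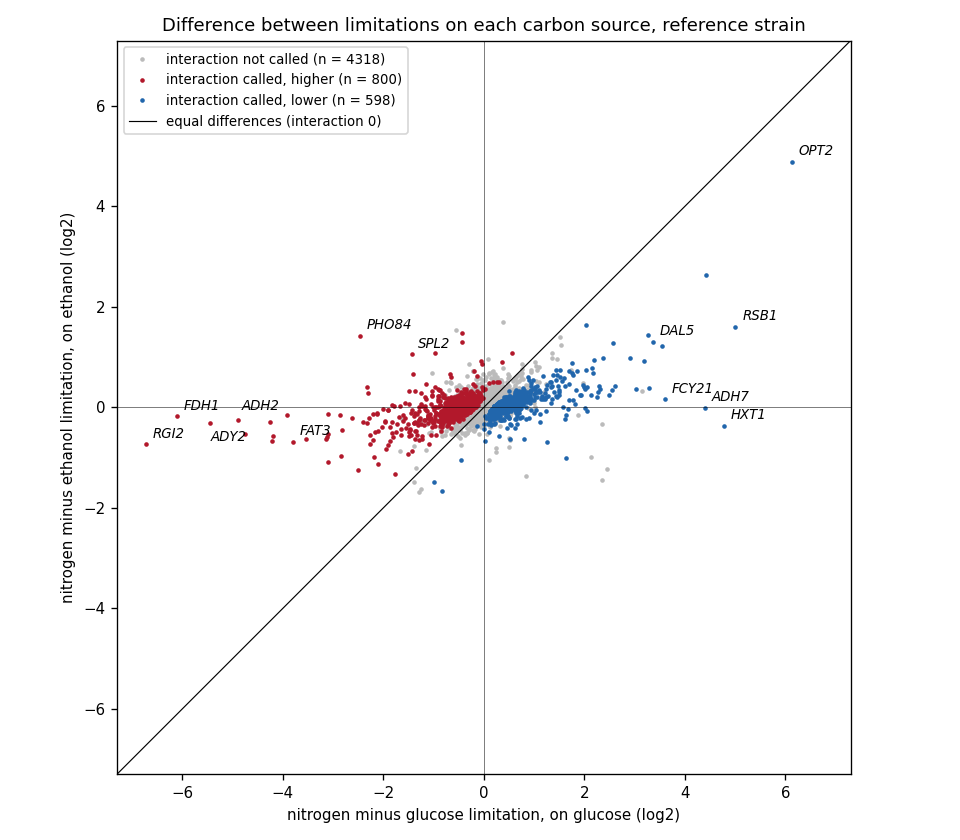
The log2 difference between nitrogen and carbon limitation on ethanol (vertical axis) against that on glucose (horizontal axis) for 5716 probe sets of the reference strain, coloured by whether the interaction was called higher (800), called lower (598) or not called, with the line of equal differences. The called probe sets spread along the horizontal axis, from RGI2 at -6.73 to OPT2 at 6.13 on glucose, and OPT2 is the one labelled gene that lies close to the line of equal differences.

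The culture that stood furthest from the other 3 groups was the nitrogen-limited culture on glucose for 848 of the 1398 (60.7%, against 46% of all probe sets) and the glucose-limited culture for 474 (33.9%, against 30.4%). The ethanol-limited culture stood furthest for 43 (3.08%, against 13.3%) and the nitrogen-limited culture on ethanol for 33 (2.36%, against 10.3%). These shapes are easiest to see in single genes. FBP1, the gluconeogenic fructose-bisphosphatase, was highest on the 4 ethanol arrays, and DAL5, the allantoate permease under nitrogen catabolite repression, was higher on both nitrogen-limited groups than on the carbon-limited group of the same carbon source. Both genes were picked from these same arrays and are no separate check of the labels. Of 35 nitrogen catabolite repression genes, 25 were called higher and 4 lower under nitrogen limitation on glucose. On ethanol 19 were called higher and 2 lower, and CAR2 and GDH2 were lower on both.

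RGI2, a gene induced in respiratory growth whose molecular function is not settled, had the highest interaction of 5449 genes. Its log2 intensity was 14.27 and 14.26 under glucose limitation, 7.44 and 7.64 under nitrogen limitation on glucose, 14.27 and 14.25 under ethanol limitation and 13.56 and 13.48 under nitrogen limitation on ethanol. The nitrogen-limited glucose arrays alone were low and no other group came near them. Nitrogen limitation lowered RGI2 by 106-fold on glucose and by 1.66-fold on ethanol, an interaction of 5.99 (SE 0.082, adjusted p = 3.03e-11). Its mean under nitrogen limitation on glucose, 7.54, lay below 9.03, the 5th percentile of log2 intensities on the reference arrays.

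Genes that bring ethanol, acetate and related carbon into acetyl-CoA were listed together with related carriers. Most of them were also lowest under nitrogen limitation on glucose, but not all had the shape of RGI2. CRC1 was low in both glucose cultures, with 11.52 and 11.60 under glucose limitation against 13.55 to 13.84 on ethanol. ATO3 also fell on ethanol, by 1.09. Of 14 genes for acetyl-CoA supply and its carriers 11 were called higher and none lower, where 14% and 10.5% of all probe sets were. Their median interaction was 1.58. ADY2 encodes an acetate permease. It read 13.86 and 13.83 under glucose limitation, 8.13 and 8.68 under nitrogen limitation on glucose, 14.40 and 14.48 under ethanol limitation and 14.12 and 14.14 under nitrogen limitation on ethanol, an interaction of 5.13 (SE 0.20, adjusted p = 5.64e-08). ADH2, the glucose-repressed alcohol dehydrogenase that oxidises ethanol, stood at 14.58 and 14.52, 9.73 and 9.59, 14.73 and 14.83 and 14.46 and 14.60 on the same groups in the same order. Its interaction was 4.64 (SE 0.10, adjusted p = 2.4e-09), made up of a glucose difference of -4.89 and an ethanol difference of -0.25 that did not pass the test (adjusted p = 0.0723).

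SFC1, the mitochondrial carrier that exchanges succinate for fumarate, had 8.74 and 8.90 on the nitrogen-limited glucose arrays and between 13.04 and 14.10 on the other 6, with an interaction of 3.97 (SE 0.11, adjusted p = 7.93e-09). The lactate and pyruvate permease JEN1 had an interaction of 2.97 (SE 0.23, adjusted p = 6.72e-06), the carnitine acetyltransferase YAT1 one of 2.01 (SE 0.066, adjusted p = 2.06e-08) and the acetyl-CoA synthetase ACS1 one of 1.69 (SE 0.078, adjusted p = 1.79e-07). In all of these the nitrogen-limited glucose culture was the low one. The isozyme ACS2 (-0.07, adjusted p = 0.443) and the cytosolic aldehyde dehydrogenase ALD6 (-0.08, adjusted p = 0.233), which also serve growth on glucose, were not called, whereas the mitochondrial ALD4 was called at 0.83 (SE 0.051, adjusted p = 1.58e-06).

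**Figure D2:**
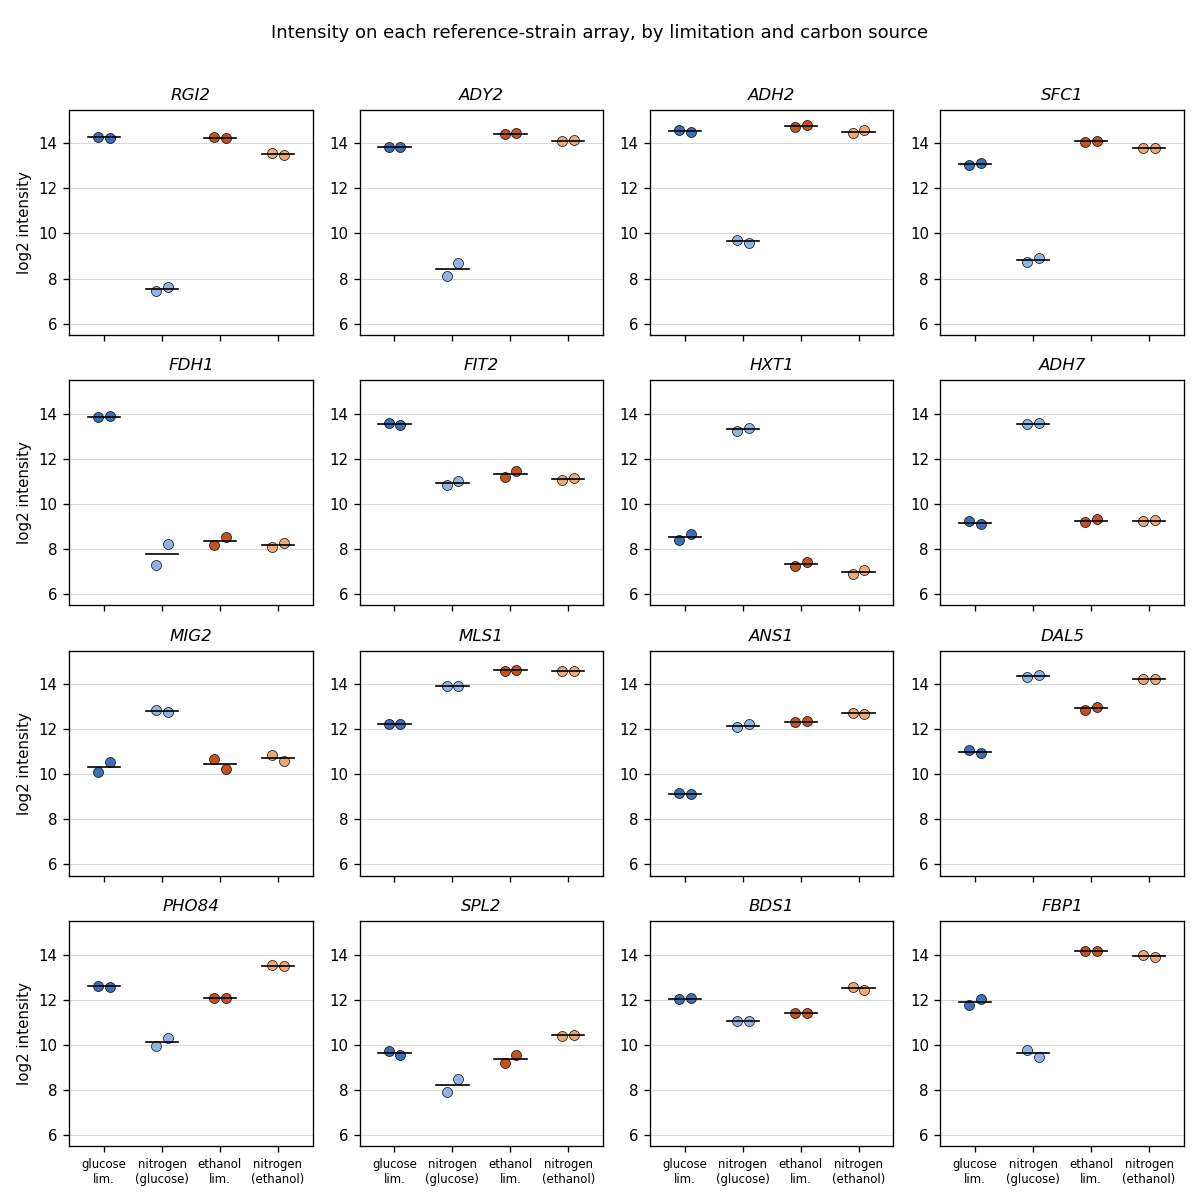
Log2 intensity of 16 genes on each of the 8 reference arrays (points) with the mean of the 2 arrays (line), by growth regime; all panels share 1 vertical scale, and a level can be compared within a gene and not between genes. RGI2, ADY2, ADH2 and SFC1 are low only under nitrogen limitation on glucose, FDH1 and FIT2 are high only under glucose limitation, and HXT1, ADH7 and MIG2 are high only under nitrogen limitation on glucose.

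Gluconeogenesis and the glyoxylate cycle let yeast build sugars from 2-carbon sources. Of 10 such genes 7 were called higher and 1 lower (median 0.50), where 14% and 10.5% of all probe sets were. FBP1 read 11.78 and 12.03 under glucose limitation, 9.78 and 9.46 under nitrogen limitation on glucose, 14.16 and 14.15 under ethanol limitation and 13.99 and 13.89 under nitrogen limitation on ethanol, so that both glucose cultures lay below both ethanol cultures and the nitrogen-limited one lay lowest. Its interaction was 2.07 (SE 0.15, adjusted p = 5.22e-06). ICL1, the isocitrate lyase that opens the glyoxylate cycle, had an interaction of 1.22 (SE 0.05, adjusted p = 1.07e-07) with levels of 12.70 and 12.71 and then 11.33 and 11.31 on glucose.

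MLS1, the malate synthase that acts next in that cycle, was the one member called lower, joined with the replicate block by PYC2 (-0.18, adjusted p with the block = 0.0289), a pyruvate carboxylase gene. The log2 intensity of MLS1 was 12.26 and 12.26 under glucose limitation and 13.92 and 13.94 under nitrogen limitation on glucose, while the ethanol arrays read 14.61 and 14.63 and 14.58 and 14.60. The glucose-limited arrays were thus the low ones, where ICL1 had its lowest level under nitrogen limitation. The interaction of MLS1 was -1.70 (SE 0.048, adjusted p = 7.93e-09). MLS1 has a close paralog, DAL7, an allantoin pathway gene under nitrogen control, which had an interaction of -0.88 (SE 0.12, adjusted p = 0.000417), and signal shared between the probe sets of the 2 paralogs was not tested.

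Most TCA cycle and respiratory chain genes were called higher, with small differences. Of 16 TCA cycle genes 15 were called higher and none lower (median 0.39), and of 33 genes of the respiratory chain and ATP synthase 27 were called higher and none lower (median 0.33), with a positive estimate in all 33. The low-oxygen isoform genes CYC7 and COX5B, both called lower, were kept on the list of oxygen-regulated genes and are not among the 33. Over all probe sets 14% were called higher. KGD1, the first subunit of 2-oxoglutarate dehydrogenase, stood at 13.61 and 13.77 under glucose limitation, 13.15 and 13.09 under nitrogen limitation on glucose, 13.68 and 13.59 under ethanol limitation and 13.79 and 13.66 under nitrogen limitation on ethanol. The nitrogen-limited glucose arrays were below the other 6, with an interaction of 0.66 (SE 0.09, adjusted p = 0.000457). CIT3, a mitochondrial citrate and methylcitrate synthase, had the largest interaction of the TCA list at 2.51 (SE 0.11, adjusted p = 1.73e-07).

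The isoform pairs CYC1 and CYC7, and COX5A and COX5B, of the respiratory chain split. The NADH dehydrogenase genes NDE1 (0.85, adjusted p = 1.13e-05) and NDE2 (0.90, adjusted p = 2.43e-05) did not, and both were called higher. CYC1, the main form of cytochrome c, read 13.85 and 13.86 under glucose limitation, 12.94 and 12.94 under nitrogen limitation on glucose, 13.41 and 13.46 under ethanol limitation and 13.65 and 13.67 under nitrogen limitation on ethanol, an interaction of 1.14 (SE 0.052, adjusted p = 1.79e-07). CYC7, the form that is favoured when oxygen is short, had an interaction of -0.55 (SE 0.082, adjusted p = 0.000776). The cytochrome oxidase subunit COX5A was likewise higher (0.51, SE 0.062, adjusted p = 0.000205) and its low-oxygen counterpart COX5B was lower (-1.63, SE 0.16, adjusted p = 3.95e-05). COX5B stood at 12.80 and 12.70 under nitrogen limitation on glucose and between 10.51 and 11.02 on the other 6 arrays, while COX5A was lowest there at 13.68 and 13.69. Of the 14 oxygen-regulated genes as a list, 2 were called higher, YHB1 (0.83, adjusted p = 3.37e-06), a flavohemoglobin gene, and TIR2 (1.08, adjusted p = 0.0437), a cell wall protein gene, and 2 lower, COX5B and CYC7. Both counts are near the shares over all probe sets, 14% higher and 10.5% lower. The call of TIR2 was lost under 10 of 17 alternatives, among them 6 that leave out 1 array.

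Peroxisomal beta-oxidation breaks fatty acids down to acetyl-CoA. The list of beta-oxidation and peroxisome genes had 11 of 27 called higher and none lower (median 0.31), where 14% of all probe sets were called higher. CTA1, the peroxisomal catalase, read 12.98 and 12.97 under glucose limitation, 9.48 and 9.39 under nitrogen limitation on glucose, 13.38 and 13.34 under ethanol limitation and 12.75 and 12.72 under nitrogen limitation on ethanol, an interaction of 2.91 (SE 0.086, adjusted p = 1.08e-08). The acyl-CoA oxidase POX1 had an interaction of 1.86 (SE 0.21, adjusted p = 0.000135) and the fatty acyl-CoA transporter subunit PXA1 one of 1.54 (SE 0.072, adjusted p = 1.99e-07). On ethanol these 3 genes also fell under nitrogen limitation, POX1 by 0.97, CTA1 by 0.63 and PXA1 by 0.73, so that here the glucose and ethanol differences had the same sign and unequal size. FAT3, which takes part in fatty acid uptake, followed with an interaction of 3.10 (SE 0.098, adjusted p = 1.46e-08). Of the peroxin genes on the list only PEX2 (1.30, adjusted p = 8.33e-06) and PEX11 (0.42, adjusted p = 0.000476), which takes part in peroxisome proliferation, were called.

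The regulators of this program were divided, with 5 of 20 called higher and 5 lower (median -0.03), where 14% and 10.5% of all probe sets were. The activators CAT8 (1.25, SE 0.12, adjusted p = 3.53e-05), SIP4 (2.07, SE 0.14, adjusted p = 2.83e-06) and ADR1 (0.82, SE 0.082, adjusted p = 4.96e-05) were higher, as were HAP4 and HAP5 of the complex that activates respiratory genes. HAP4 rested on a small difference (0.27, adjusted p = 0.0422). SIP4 had 11.32 and 11.23 under glucose limitation, 8.95 and 9.21 under nitrogen limitation on glucose, 13.03 and 13.08 under ethanol limitation and 12.90 and 12.96 under nitrogen limitation on ethanol, the same order of groups as FBP1.

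The repressors MIG2 and MIG3, zinc finger proteins that act in glucose repression, were among the lowest interactions of all genes. MIG2 read 10.10 and 10.54 under glucose limitation, 12.85 and 12.76 under nitrogen limitation on glucose, 10.69 and 10.26 under ethanol limitation and 10.84 and 10.60 under nitrogen limitation on ethanol. Only the nitrogen-limited glucose arrays were high, and the other 6 lay between 10.10 and 10.84. The interaction was -2.25 (SE 0.39, adjusted p = 0.00216) for MIG2 and -2.19 (SE 0.19, adjusted p = 1.97e-05) for MIG3. Their relative MIG1 had an estimate of -0.41 that did not pass the test (adjusted p = 0.145, and 0.000223 with the replicate block). The repressor gene NRG2 (-0.83), the Snf1 complex subunit gene GAL83 (-0.40) and the kinase gene SNF1 itself were also called lower, SNF1 at -0.55 (SE 0.089, adjusted p = 0.00132).

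Hexose transport held the lowest interaction of all genes. HXT1 encodes a low-affinity glucose transporter that is induced when glucose is plentiful. Its log2 intensity was 8.40 and 8.66 under glucose limitation, 13.25 and 13.36 under nitrogen limitation on glucose, 7.24 and 7.41 under ethanol limitation and 6.87 and 7.05 under nitrogen limitation on ethanol. The difference on glucose was 27.4-fold upward and the difference on ethanol did not pass the test (-0.37, adjusted p = 0.306), which gave an interaction of -5.14 (SE 0.26, adjusted p = 3.13e-07). The means of the other 3 groups lay below the 5th percentile of 9.03.

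Of 17 genes for hexose transport and sensing 2 were called higher and 4 lower, where 14% and 10.5% of all probe sets were. HXT3, another low-affinity transporter, was lower (-1.70, SE 0.098, adjusted p = 9.63e-07), as were HXT4 (-1.06, adjusted p = 0.000308) and STD1 (-1.20, adjusted p = 0.000328), a regulator in the glucose sensing pathway. HXT3 and HXT4 were above their ethanol levels in both glucose cultures, HXT4 at 12.64 and 12.55 under glucose limitation, 13.41 and 13.46 under nitrogen limitation on glucose and 10.34 to 10.62 on ethanol. The high-affinity transporter HXT7 was higher (0.81, SE 0.056, adjusted p = 3.75e-06), with 14.14 and 14.22 under glucose limitation and 13.59 and 13.56 under nitrogen limitation on glucose. HXT2, also of high affinity, was called at 0.43 (SE 0.084, adjusted p = 0.00388) although it fell under nitrogen limitation on both carbon sources, by 1.76 on glucose and by 1.33 on ethanol. The hexose transporter genes share sequence, and signal shared between their probe sets was not tested.

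The signal of the glycolysis and fermentation genes was nearly flat. Of 24 members 2 were called higher and 1 lower (median -0.02), where 14% and 10.5% of all probe sets were. The exception in size was PDC5, a pyruvate decarboxylase isozyme, which stood at 12.18 and 12.55 under glucose limitation, 14.27 and 14.29 under nitrogen limitation on glucose, 12.40 and 12.32 under ethanol limitation and 12.68 and 12.53 under nitrogen limitation on ethanol. Its interaction of -1.67 (SE 0.14, adjusted p = 1.24e-05) is to be set beside -0.13 (adjusted p = 0.0885) for the main isozyme PDC1. HXK1 (0.30, adjusted p = 0.0119) and GLK1 (0.20, adjusted p = 0.0336), the hexokinase and glucokinase that glucose represses, were the 2 members called higher. Several flat members lay near the top of the intensity range, such as TDH3 at 14.98 to 15.09 and PGK1 at 14.69 to 14.78. On the reference arrays the 95th percentile was 13.93 and the highest value 15.09. Whether differences were compressed at such levels was not tested.

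Nitrogen catabolite repression genes gave the largest group of lower interactions, with 21 of 35 called lower and 4 higher (median -0.39), where 10.5% of all probe sets were called lower. All 21 rose under nitrogen limitation on glucose. On ethanol 14 of them had a called rise, smaller than on glucose, and 7 had no called difference (GAP1, PUT2, PUT4, GAT1, UGX2, MEP3 and UGA1). DAL5 read 11.09 and 10.93 under glucose limitation, 14.35 and 14.40 under nitrogen limitation on glucose, 12.86 and 12.99 under ethanol limitation and 14.22 and 14.25 under nitrogen limitation on ethanol. Both nitrogen-limited groups reached a like level and the carbon-limited groups did not overlap, the ethanol-limited one lying higher. The rise was 3.36 on glucose and 1.31 on ethanol, both called, and the interaction was -2.05 (SE 0.091, adjusted p = 1.68e-07).

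MEP2, the high-affinity ammonium permease, had the same shape, with 14.86 and 14.77 under nitrogen limitation on glucose and 14.79 and 14.80 on ethanol, against 13.74 and 13.84 under glucose limitation and 14.61 and 14.57 under ethanol limitation. These nitrogen-limited values are close to the highest of any probe set on the reference arrays, 15.09. Its interaction was -0.82 (SE 0.065, adjusted p = 8.73e-06). Other members differed in the nitrogen-limited cultures instead. PTR2, a peptide transporter, reached 11.59 and 11.72 under nitrogen limitation on glucose but 9.66 and 9.46 on ethanol, from 9.64 and 9.69 and 9.08 and 9.16 under the respective carbon limitation. Its interaction was -1.54 (SE 0.15, adjusted p = 3.88e-05). PUT1, the proline oxidase, likewise rose on glucose from 12.87 and 12.97 to 14.09 and 14.08 and on ethanol only from 13.03 and 12.98 to 13.25 and 13.18, an interaction of -0.95 (SE 0.073, adjusted p = 7.24e-06).

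The oligopeptide transporter OPT2 had the largest rises of the list, 6.13 on glucose and 4.89 on ethanol, and an interaction of -1.24 (SE 0.21, adjusted p = 0.00194) between them. DUR3, the urea permease, rose by 2.04 on glucose and by 1.63 on ethanol, a called interaction of -0.41 (adjusted p = 0.00161). Among the GATA factors, DAL80 (-1.29, SE 0.13, adjusted p = 4.17e-05), a repressor that is itself under this control, and GAT1 (-0.45, SE 0.067, adjusted p = 0.000744) were lower, and GLN3 (-0.12, adjusted p = 0.589) was not called.

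The 4 members called higher were CAR2, GDH2, MEP1 and GDH3. CAR2 and GDH2 encode ornithine aminotransferase and the glutamate dehydrogenase that releases ammonium, and both fell under nitrogen limitation on glucose, CAR2 by 0.86 and GDH2 by 0.65. MEP1, another ammonium permease, fell on glucose by 0.64, where its relative MEP2 rose by 1.03. GDH3, an ammonium-assimilating glutamate dehydrogenase, fell by 0.46 on glucose and rose by 0.25 on ethanol, an interaction of 0.71 (SE 0.069, adjusted p = 4.01e-05).

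**Figure D3:**
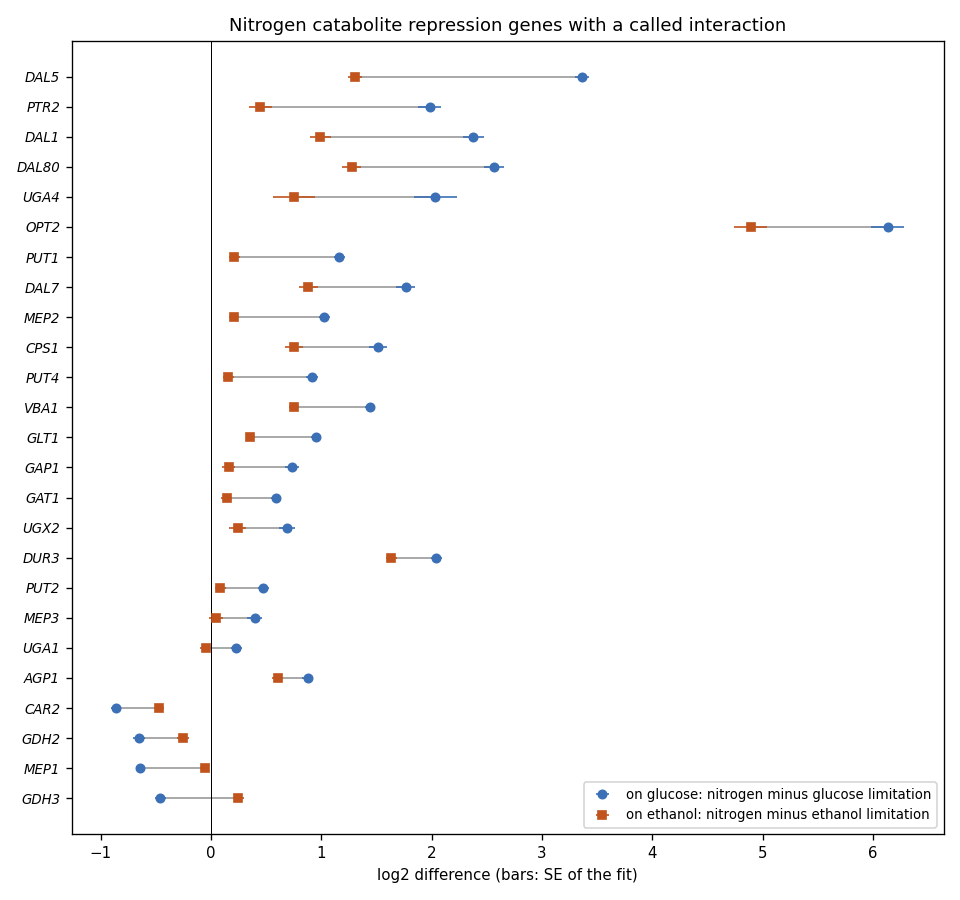
Log2 difference between nitrogen and carbon limitation on glucose (circles) and on ethanol (squares), with the standard error of the fit, for the 25 of 35 nitrogen catabolite repression genes whose interaction was called, ordered by the interaction. In the 21 genes from DAL5 down to AGP1 the glucose difference exceeds the ethanol difference, and in the lowest 4 genes, CAR2, GDH2, MEP1 and GDH3, the glucose difference is the lower one.

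Autophagy and vacuolar protease genes, which recycle nitrogen in starved cells, had 6 of 20 called lower and 2 higher (median -0.12). The shares over all probe sets were 10.5% lower and 14% higher. APE1, the vacuolar aminopeptidase, stood at 12.24 and 12.31 under glucose limitation, 13.42 and 13.44 under nitrogen limitation on glucose, 12.25 and 12.31 under ethanol limitation and 12.58 and 12.45 under nitrogen limitation on ethanol, an interaction of -0.92 (SE 0.085, adjusted p = 2.84e-05). ATG14, a subunit of the lipid kinase that starts autophagy, followed at -0.73 (SE 0.10, adjusted p = 0.000671).

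Amino acid biosynthesis had 5 of 49 genes called higher and 7 lower (10 and 12 with the replicate block), shares near the 14% and 10.5% over all probe sets. The higher calls numbered 3 without the second glucose-limited array or without the first nitrogen-limited ethanol array, and the lower calls numbered 4 without the first ethanol-limited array. ARO7, chorismate mutase, rose only under nitrogen limitation on glucose, to 12.41 and 12.36 from 11.11 and 11.21 under glucose limitation, while the ethanol arrays ran from 11.27 to 11.57. Its interaction was -1.06 (SE 0.087, adjusted p = 1.14e-05). ARG1, argininosuccinate synthetase, was low on the glucose-limited arrays only (13.27 and 13.26), with 14.05 to 14.22 on the other 6 and an interaction of -0.85 (SE 0.047, adjusted p = 7.81e-07).

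In sulfate assimilation and methionine metabolism 6 of 25 genes were called higher and 3 lower, where 14% and 10.5% of all probe sets were. Under the replicate block 10 were called higher, against 20.3% of all probe sets. The leading genes were permeases. MMP1, for S-methylmethionine, was at 12.30 and 12.34 under nitrogen limitation on glucose and between 13.54 and 13.66 on the other 6 arrays, an interaction of 1.32 (SE 0.059, adjusted p = 1.68e-07). MUP1, for methionine, and SUL1, for sulfate, followed at 1.29 and 0.59 (adjusted p = 7.24e-06 and 4.86e-05).

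Phosphate and metal uptake gave 2 further shapes. Of 23 genes 12 were called higher and 2 lower (median 0.37), where 14% and 10.5% of all probe sets were. PHO84, the high-affinity phosphate transporter, was the largest case of opposite movement. It read 12.64 and 12.55 under glucose limitation and 9.94 and 10.33 under nitrogen limitation on glucose, but 12.07 and 12.09 under ethanol limitation and 13.53 and 13.50 under nitrogen limitation on ethanol. Nitrogen limitation thus lowered it by 5.5-fold on glucose and raised it by 2.69-fold on ethanol, both called, an interaction of 3.89 (SE 0.19, adjusted p = 2.29e-07).

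SPL2, which restrains low-affinity phosphate uptake when phosphate is short, did the same from 9.74 and 9.54 to 7.92 and 8.49 on glucose and from 9.21 and 9.53 to 10.40 and 10.46 on ethanol. Its interaction was 2.49 (SE 0.27, adjusted p = 8.96e-05). The sodium-coupled phosphate transporter PHO89 fell on glucose (-2.30) with a difference of 0.28 on ethanol that did not pass the test (adjusted p = 0.167), an interaction of 2.58 (SE 0.15, adjusted p = 9.88e-07). The secreted acid phosphatase genes PHO5 (0.33, adjusted p = 0.134) and PHO11 (0.20, adjusted p = 0.122), which belong to the same phosphate starvation response, were not called.

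Opposite movement past the test on both carbon sources was found for 52 probe sets, 36 that fell on glucose and rose on ethanol and 16 that did the reverse. Beside PHO84 and SPL2, the named ones were BDS1, an alkylsulfatase, CDA1, a chitin deacetylase of the spore wall, and the uncharacterised YMR175W-A. BDS1 stood at 12.03 and 12.06 under glucose limitation, 11.08 and 11.06 under nitrogen limitation on glucose, 11.42 and 11.44 under ethanol limitation and 12.57 and 12.45 under nitrogen limitation on ethanol, an interaction of 2.05 (SE 0.076, adjusted p = 4.4e-08). The interaction was 2.08 (SE 0.16, adjusted p = 7.59e-06) for CDA1 and 1.33 (SE 0.24, adjusted p = 0.00247) for YMR175W-A, whose ethanol-limited arrays lay apart at 8.72 and 8.13.

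Several iron uptake genes were high under glucose limitation alone. FIT2, a cell wall mannoprotein that retains siderophore iron, read 13.60 and 13.49 under glucose limitation, 10.82 and 11.03 under nitrogen limitation on glucose, 11.19 and 11.46 under ethanol limitation and 11.07 and 11.17 under nitrogen limitation on ethanol. Its interaction was 2.41 (SE 0.17, adjusted p = 3.39e-06). FIT3, of the same kind, had 1.98 (SE 0.084, adjusted p = 1.18e-07) and the siderophore transporter ARN1 1.66 (SE 0.14, adjusted p = 1.13e-05). FIT1 (0.02, adjusted p = 0.961) was not called. The zinc transporter ZRT1 was lower (-1.84, SE 0.18, adjusted p = 4.25e-05), with 12.51 and 12.87 under nitrogen limitation on glucose against 11.20 and 10.95 under glucose limitation.

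FDH1, formate dehydrogenase, had the same shape as the iron genes in a far larger form and the next highest interaction after RGI2. It read 13.84 and 13.89 under glucose limitation, 7.31 and 8.22 under nitrogen limitation on glucose, 8.19 and 8.53 under ethanol limitation and 8.09 and 8.28 under nitrogen limitation on ethanol. The fall of 68.5-fold on glucose had no counterpart on ethanol (-0.17, adjusted p = 0.816), and the interaction was 5.92 (SE 0.34, adjusted p = 8.71e-07). The means of all 3 low groups of FDH1 also lay below 9.03.

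Storage carbohydrate and stress genes had more lower than higher calls, although most of the stress genes were not called. Of 19 trehalose and glycogen genes 8 were called lower and 2 higher (median -0.19), and of 21 general stress genes 5 were called lower and 1 higher (7 lower with the replicate block) and 15 were not called (median -0.040, 10 positive estimates). Over all probe sets 10.5% were called lower. CTT1, the cytosolic catalase, stood at 11.87 and 11.77 under glucose limitation, 13.71 and 13.64 under nitrogen limitation on glucose, 12.73 and 12.69 under ethanol limitation and 13.46 and 13.43 under nitrogen limitation on ethanol. It rose on both carbon sources, more on glucose, with an interaction of -1.12 (SE 0.062, adjusted p = 7.44e-07). PIG2, a putative regulatory subunit for glycogen synthesis, had -1.06 (SE 0.12, adjusted p = 0.000101), TSL1, of the trehalose synthase complex, -0.48 (SE 0.068, adjusted p = 0.000603) and the aldehyde dehydrogenase ALD3 -1.07 (SE 0.19, adjusted p = 0.00211). The 2 trehalose and glycogen genes that were higher were ATH1, which degrades trehalose (0.47, adjusted p = 0.000164), and GLG2, which primes glycogen (0.46, adjusted p = 0.00376). The catalases CTT1 and CTA1 thus differed in sign.

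In the pentose phosphate pathway 2 of 11 genes were called higher and 1 lower, near the 14% and 10.5% over all probe sets. Under the replicate block 6 were called higher, where 20.3% of all probe sets were. RKI1, ribose-5-phosphate isomerase, had an interaction of 0.79 (SE 0.074, adjusted p = 3.1e-05) and the 6-phosphogluconolactonase homologue SOL4 one of -0.41 (SE 0.05, adjusted p = 0.000228).

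Cytosolic ribosomal protein genes hardly took part. Of 127, 1 was called higher (RPL22B, 0.22, adjusted p = 0.0446) and 1 lower (RPS27A, -0.21, adjusted p = 0.0216), where 14% and 10.5% of all probe sets were. The range of all 127 was -0.24 to 0.22. Without the second nitrogen-limited glucose array 5 were called lower, and the calls of RPL22B and RPS27A were lost under 7 and 6 of 18 alternatives. The factors that assemble ribosomes behaved differently. Of 56 ribosome biogenesis genes 17 were called higher and none lower (median 0.30), where 14% and 10.5% of all probe sets were. With the replicate block 33 were called higher, where 20.3% of all probe sets were. NOP56, a box C/D snoRNP protein, read 12.05 and 12.09 under glucose limitation, 11.74 and 11.69 under nitrogen limitation on glucose, 11.70 and 11.85 under ethanol limitation and 11.90 and 12.02 under nitrogen limitation on ethanol, an interaction of 0.54 (SE 0.1, adjusted p = 0.00277). RRP36, needed for processing of the small subunit rRNA, had the largest at 0.77 (SE 0.12, adjusted p = 0.00107). Mitochondrial ribosomal protein genes had 8 of 54 called higher and none lower, where 14% and 10.5% of all probe sets were. With the replicate block 22 were called higher, where 20.3% of all probe sets were. MRPL6 (0.47, adjusted p = 0.0334) and MRPL31 (0.38, adjusted p = 0.00453) led the list. That count of 8 fell to 4 or 5 without either ethanol-limited array or without the glucose-limited array numbered 2 in its title.

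Of the remaining lists, fatty acid, phospholipid and sterol synthesis had 6 of 37 called higher and 1 lower (10 higher with the replicate block), a share of higher calls near the 14% over all probe sets. INO1, inositol-3-phosphate synthase, led at 1.02 (SE 0.067, adjusted p = 2.52e-06), with 12.11 and 12.23 under nitrogen limitation on glucose and 13.46 to 13.92 on the other 6 arrays. UPC2, an activator of sterol genes, had 0.99 (SE 0.23, adjusted p = 0.0115). The proteasome had none of 35 called higher and 3 lower, where 14% and 10.5% of all probe sets were. With the replicate block 2 of the 35 were called higher and 8 lower, where 20.3% and 17.2% of all probe sets were. RPN4 (-0.39, adjusted p = 0.000341), which encodes the activator of proteasome genes, had the largest called interaction of the list. Among 16 mating type and meiosis markers 3 were called higher, also near the 14% over all probe sets. They were the mating type switching endonuclease gene HO (1.21, adjusted p = 0.000405) and the alpha-cell genes SAG1 (0.86, adjusted p = 0.00095) and MF(ALPHA)1 (0.62, adjusted p = 0.000158).

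**Figure D4:**
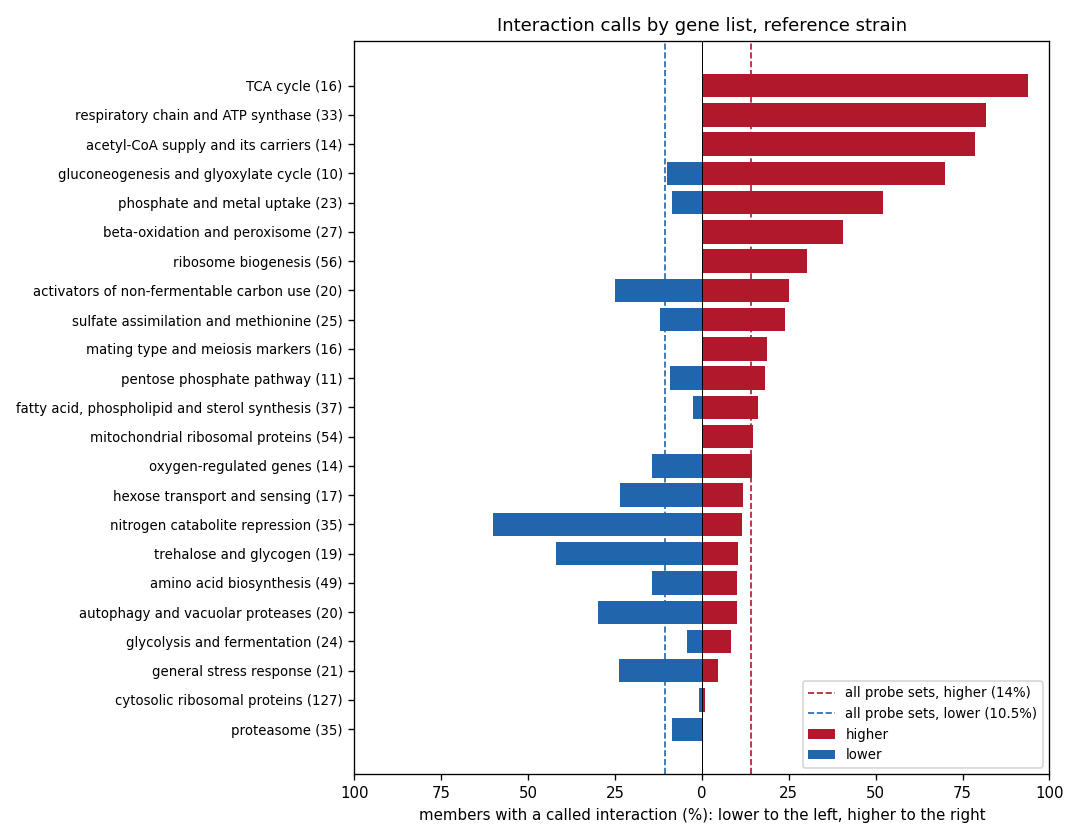
Share of the members of 23 gene lists (number of members in brackets) with a called interaction, lower to the left and higher to the right, with the shares over all probe sets, 14% higher and 10.5% lower, as dashed lines. The TCA cycle, the respiratory chain and acetyl-CoA supply extend furthest to the right, and nitrogen catabolite repression extends furthest to the left.

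Genes outside these pathways filled much of the low end. ADH7, an NADPH-dependent alcohol dehydrogenase, was high on the nitrogen-limited glucose arrays only, at 13.53 and 13.60, with 9.09 to 9.32 on the other 6. The ethanol difference did not pass the test (adjusted p = 0.997), and the interaction was -4.40 (SE 0.11, adjusted p = 5.02e-09). FCY21, a putative purine and cytosine permease, had 12.44 and 12.47 on those arrays and 8.73 to 9.46 elsewhere (-3.44, SE 0.20, adjusted p = 8.41e-07). RSB1, a transporter of sphingoid bases, rose on both carbon sources, from 7.61 and 7.58 to 12.65 and 12.56 on glucose and from 8.85 and 8.95 to 10.64 and 10.37 on ethanol, an interaction of -3.41 (SE 0.20, adjusted p = 9.88e-07). HMS1, a transcription factor tied to filamentous growth, had the same shape at -2.26 (SE 0.24, adjusted p = 7.32e-05). ANS1, a putative cell wall protein, was low only under glucose limitation (9.16 and 9.12, against 12.11 to 12.72 on the other 6), as MLS1 was, with an interaction of -2.66 (SE 0.11, adjusted p = 1.12e-07).

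At the high end, CSM4 and NDJ1, known for chromosome movement in meiosis, and YIG1, tied to glycerol formation, were low under nitrogen limitation on glucose. CSM4 read 10.83 and 10.93 under glucose limitation, 5.91 and 6.34 under nitrogen limitation on glucose, 9.95 and 9.88 under ethanol limitation and 9.54 and 9.25 under nitrogen limitation on ethanol, an interaction of 4.24 (SE 0.24, adjusted p = 7.44e-07). YIG1, which lies next to CSM4 on the chromosome on the opposite strand, had 3.62 (SE 0.16, adjusted p = 1.65e-07) with the groups in the same order. NDJ1 varied widely between arrays, with 4.66 and 6.53 under nitrogen limitation on glucose, and its interaction of 3.55 carried an SE of 0.63 (adjusted p = 0.0023). At the low end, SAE3 (-2.64, SE 0.80, adjusted p = 0.0364) and the uncharacterised YDR034C-A (-2.91, SE 0.76, adjusted p = 0.0189) were as uncertain, with all group means below the 5th percentile and calls that were lost under 9 and 5 of 17 alternatives. Of the 20 genes at the 2 ends, 14 had a group mean below that percentile, against 72 of the 1398 called probe sets.

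The 8 mutant arrays gave the same contrast in the other strain. They did not enter the reference estimates but shared in the spread behind the 1398 calls, which numbered 858 with the reference arrays alone. In the mutant 1931 probe sets (33.8%) had a called interaction, 914 higher (16%) and 1017 lower (17.8%). Of the 1398 called in the reference 833 were called in the mutant with the same sign, which is 59.6% of the reference calls and 43.1% of the mutant calls, and 71 were called with the opposite sign. The sign alone was shared by 1168 of the 1398 (83.5%), against 3868 of all 5716 probe sets (67.7%). Across probe sets, which are not independent replicates, the 2 interactions had a Pearson correlation of 0.706. RGI2 (6.73 in the mutant), ADY2 (5.61), ADH2 (5.13), FDH1 (5.38) and HXT1 (-5.72) stood at the same ends in both strains.

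The difference between the strains, tested as the mutant interaction minus the reference interaction, was called for 679 probe sets (11.9%), with 354 (6.19%) higher in the mutant and 325 (5.69%) lower, and for 380 of the 1398 (27.2%). With the replicate block 1381 were called. Ribosome biogenesis genes differed in direction. The mutant had 2 of 56 called higher and 15 lower, where 16% and 17.8% of all probe sets were, and the reference had 17 higher and none lower. By the test of the difference 19 of the 56 were called lower in the mutant and none higher, where 5.69% and 6.19% of all probe sets were. NOP56 was 0.54 in the reference and -0.34 in the mutant (difference -0.88, adjusted p = 0.00287). In phosphate and metal uptake 11 of 23 were called lower in the mutant by that test and 1 higher, where 5.69% and 6.19% of all probe sets were. In the mutant PHO84 stood at 1.78 (difference -2.11, adjusted p = 0.000639) and SPL2 at 0.30 (difference -2.20, adjusted p = 0.00427).

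Stress, storage and beta-oxidation genes differed the other way. By the test of the difference 13 of 21 general stress genes, 11 of 19 trehalose and glycogen genes and 10 of 27 beta-oxidation and peroxisome genes were higher in the mutant. No gene of these lists was lower, where 6.19% of all probe sets were higher and 5.69% lower. CTT1 had an interaction of -1.12 in the reference and 0.48 in the mutant (adjusted p of the difference = 5.07e-06). FAT3 had the largest difference among the named genes, from 3.10 in the reference to 6.71 in the mutant (adjusted p = 7.11e-07), followed by POX1, from 1.86 to 4.64 (adjusted p = 0.000251). Nitrogen catabolite repression genes had 22 of 35 called lower and 4 higher in the mutant, against 21 and 4 in the reference. By the test of the difference 4 of the 35 were higher and 7 lower in the mutant, where 6.19% and 5.69% of all probe sets were.

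**Figure D5:**
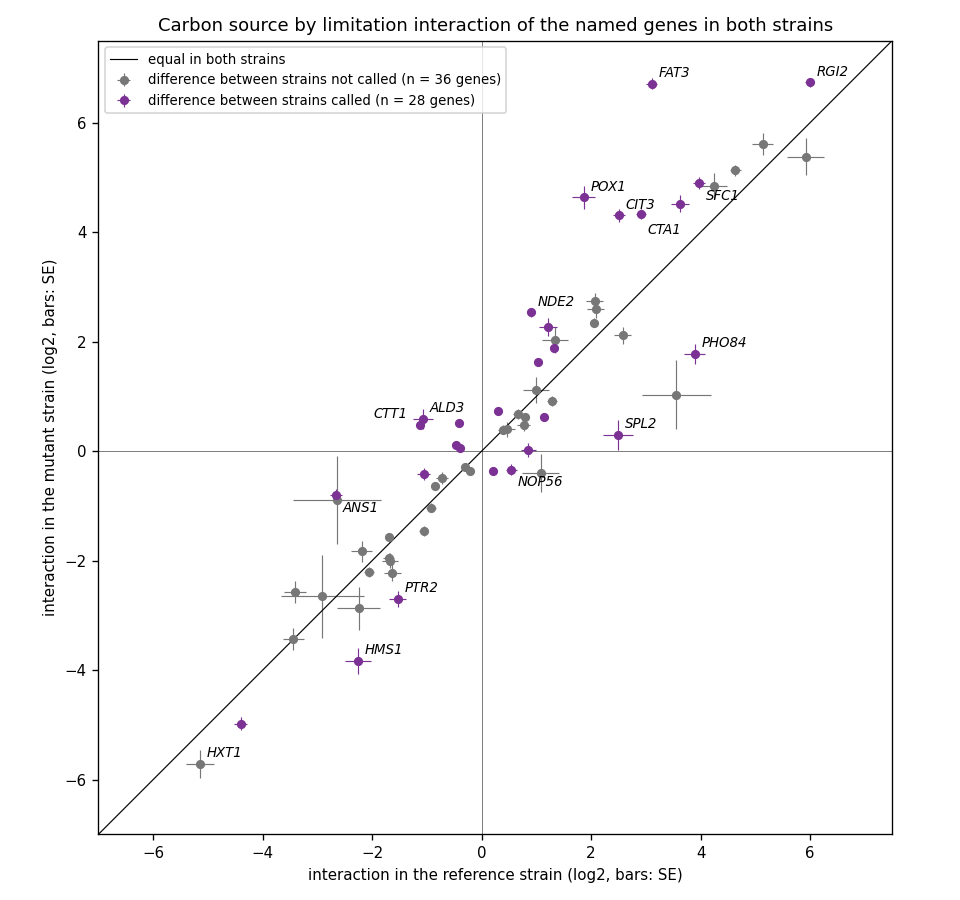
Interaction of the 64 named genes in the mutant strain (vertical axis) against the reference strain (horizontal axis), both in log2 with the standard error of the fit, coloured by whether the difference between strains was called (28 genes) or not (36 genes), with the line of equal interactions. FAT3, POX1, CIT3 and NDE2 lie above the line and PHO84, SPL2 and HMS1 below it, while RGI2 and HXT1 at the ends of the range lie near it.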

How the data were processed

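The labels describe 16 Affymetrix yeast arrays of total RNA, labelled as biotinylated cRNA, from chemostat samples. The authors deposited linear intensities per probe set, normalized and summarised over arrays before deposit; the submitters' processing notes name GCRMA, without a version, the study's methods add quantile normalization and median polish, and no source used here gives the build of the probe annotation. The lowest intensity was 1, which 5 values had. Their log2 was taken with nothing added. A single gene symbol was found for 5498 of 5716 probe sets (12 symbols were updated through the R64 gene table) and none for 218, while 132 may match more than 1 member of a gene family. Where a gene had several probe sets, the one with the highest mean was used.

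With limma 3.58.1 (R 4.3.3), a mean per group was estimated from the 16 arrays together (8 residual and 2.01 prior degrees of freedom), and each contrast was adjusted by the Benjamini-Hochberg method over all probe sets, with a threshold of 0.05. The study's methods, a network model, state no test between these groups. Every adjusted p in the text comes from this limma fit, except those given with the replicate block. These come from the limma fit that includes the block. The script was tested on simulated data. For arrays, their number limits the precision.

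The replicate numbers in titles and descriptions are reversed for the glucose-limited reference arrays. Differences between the 2 arrays of each reference group correlated at 0.354 to 0.682 in all 6 pairs of groups by the description's numbers, and at -0.682 to 0.655 by the title's. The description's numbers were therefore taken to pair the reference arrays and used as a block in an alternative. In the mutant these correlations were 0.0227 to 0.294.

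Genes named are the 10 highest and 10 lowest called interactions whose sign held for every choice of 1 array per group, the 5 with the largest opposite effects, and the 2 leading called members of each of 23 lists. Other members named were chosen after their values were seen. The genes and lists were chosen with earlier results of these data known. Of the written list members, 11 had no probe set matched here. Alternatives were quantile normalization, median centring, an offset of 32, only brighter probe sets, no family probe sets, only the 8 reference arrays, another prior, a replicate block by either numbering, an added threshold of 1 and leaving out each array. No array-level columns were left out.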

Additional observations from a re-analysis of the deposited data

Results flagged for a closer look

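Differences between carbon sources and between strains under the same contrast were looked for by the test of the difference itself. Groups of 2 arrays are too small for a check of single outlying arrays. The difference between ethanol and glucose in the response to nitrogen limitation, which is the interaction of the reference strain, was called for 1398 probe sets. The difference of that interaction between the mutant and the reference strain was called for 679 probe sets, and for 28 of the 64 named genes. All values below are the mutant interaction minus the reference interaction on the log2 scale, each past the limma threshold.

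The mutant interaction was higher for FAT3 (3.61), POX1 (2.77), CIT3 (1.80), NDE2 (1.64), CTA1 (1.42), SFC1 (0.93), YIG1 (0.90) and RGI2 (0.74), all of which had their lowest group mean under nitrogen limitation on glucose in the reference strain. HO (1.05), INO1 (0.61) and MMP1 (0.56), which were lowest in that same group, and HXK1 (0.43), which was not, were also higher in the mutant. Among genes with a negative reference interaction it was higher for ANS1 (1.86), ALD3 (1.66), CTT1 (1.61), SOL4 (0.92), PIG2 (0.64), TSL1 (0.59) and RPN4 (0.45), and the mutant interaction was itself called higher for ALD3, CTT1 and SOL4, while those of TSL1 (0.12) and RPN4 (0.061) were not called.

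The mutant interaction was lower for SPL2 (-2.19), PHO84 (-2.11), NOP56 (-0.88), SAG1 (-0.84), RPL22B (-0.58) and CYC1 (-0.51), which were positive in the reference strain. It was also lower for HMS1 (-1.57), PTR2 (-1.17) and ADH7 (-0.57), which were negative in the reference strain and more so in the mutant. The labels do not name the change in the mutant strain, and no cause was tested.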

How the results depend on the processing

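Of 183 counts recomputed under an alternative, 155 stayed within 1.5 times the reported value and 28 did not, and no named gene's interaction changed sign. The median interaction over all probe sets went from 0.017 to -0.018 after quantile normalization, and that of the amino acid biosynthesis genes from -0.00096 to 0.0046 after median centring. Counts are given in the order interaction, nitrogen against ethanol limitation on ethanol, and ethanol against glucose under carbon limitation, with 1398, 469 and 1388 as reported. They were 858, 178 and 845 with only the 8 reference arrays and 2145, 871 and 2194 with the replicate block of the description, under which the difference between strains was called for 1381 probe sets instead of 679; the block removed none of the 1398 calls. The title's numbers as a block gave 1412 interaction calls. Leaving out 1 array gave 1109 to 1405 interaction calls, 240 to 472 for the limitations on ethanol (240 and 248 without either ethanol-limited array, 248 and 282 without either nitrogen-limited ethanol array) and 897 to 1459 for the carbon sources under carbon limitation (897 without the first ethanol-limited array).

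Tested on the brighter probe sets only, which are fewer, the counts were 812, 302 and 831, with 1356 for the limitations on glucose, 1107 for the carbon sources under nitrogen limitation, 610 called on glucose and not on ethanol, 31 of the named genes, 1111 in the mutant and 450 for the difference between strains. An added threshold of 1 left 191, 28 and 84, with 262, 175, 316 and 127 for the limitations on glucose, the carbon sources under nitrogen limitation, the mutant and the difference between strains. The block of the description fitted to the 8 reference arrays alone, an alternative chosen after the data were seen, gave 1823. Of the 64 named genes 56 kept their call under every alternative in which they were tested, and HXK1, MRPL6, RPL22B, RPS27A, SAE3, TIR2, UPC2 and YDR034C-A lost it under at least 1. Of the interaction calls 57.2% were higher, and 50.8% after quantile normalization. The cause of these shifts was not tested. Some of the alternatives also held fewer arrays or probe sets.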

Other observations

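Further genes outside the lists, chosen after their values were seen, had the shapes described above. Some, such as PDH1, ICL2 and MPC3 of mitochondrial propionate and pyruvate use, had their lowest level under nitrogen limitation on glucose. PDH1, of the methylcitrate cycle, read 13.35 and 13.38 under glucose limitation, 10.41 and 10.58 under nitrogen limitation on glucose, 13.91 and 13.89 under ethanol limitation and 13.77 and 13.72 under nitrogen limitation on ethanol, an interaction of 2.71 (SE 0.10, adjusted p = 4.91e-08). ICL2, the lyase of the same cycle, had an interaction of 1.86 (SE 0.085, adjusted p = 1.79e-07), beside CIT3 in the report. MPC3, a subunit of the mitochondrial pyruvate carrier, had 2.03 (SE 0.096, adjusted p = 2.07e-07) and the putative ammonium exporter gene ATO2, a relative of ADY2, 2.37 (SE 0.16, adjusted p = 2.79e-06).

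Plasma membrane permeases for amino acids went in both directions. TAT2, which takes up tryptophan and tyrosine, stood at 11.26 and 11.16 under glucose limitation, 7.88 and 8.29 under nitrogen limitation on glucose, 10.19 and 10.21 under ethanol limitation and 9.68 and 9.56 under nitrogen limitation on ethanol, an interaction of 2.55 (SE 0.18, adjusted p = 3.36e-06). BAP2, for branched-chain amino acids, had 1.73 (SE 0.10, adjusted p = 9.88e-07). DIP5, for dicarboxylic amino acids, went the other way, with 13.90 and 14.03 under nitrogen limitation on glucose, 12.58 and 12.69 on ethanol and an interaction of -1.93 (SE 0.11, adjusted p = 1.11e-06). The peptide transporter OPT1 was at -1.77 (SE 0.15, adjusted p = 1.49e-05), having risen by 4.42 on glucose and by 2.64 on ethanol.

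DAK2, a dihydroxyacetone kinase, was high under glucose limitation only, at 11.38 and 11.49, with 8.20 to 9.15 on the other 6 arrays and an interaction of 2.74 (SE 0.19, adjusted p = 3.9e-06), the shape of FDH1. CHA1, the serine and threonine deaminase, was high under nitrogen limitation on glucose only, at 11.23 and 11.28, with an interaction of -1.87 (SE 0.15, adjusted p = 8.95e-06). Among chromosomal neighbours of named genes, YIG1 beside CSM4 and FCY22 beside FCY21 (-1.48) had a called interaction of the same sign and over 1 in size, as did ARO9 (1.55, adjusted p = 0.000197) beside SPL2. VHR1, beside RGI2, had the opposite sign (-1.08). FCY21 and FCY22 are relatives, and signal shared between their probe sets was not tested.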
